A study of Mus musculus with 16 samples.

Results

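The cytosolic ribosomal protein genes were followed in the liver metastases of 16 mice, as 83 of the 21959 genes counted in each mouse. A gene was a member when its symbol had the form of a ribosomal protein name (Rpl, Rps or Rplp with a number, and letters such as a, x or l1) or was Rpsa. Membership thus followed from the name and no measured value, but the rule was set with earlier results of these data known. There were 48 members of the large subunit, 32 of the small subunit and 3 of the stalk, the flexible arm of the large subunit. The annotation holds 6 more genes that match the names (Rpl32l, Rpl6l, Rps12l1, Rps3a2, Rps3a3 and Rps4l), which were not analysed here.

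MC38 is a mouse colon adenocarcinoma cell line, and it was injected into the spleen of C57BL/6 males (wild type, 6 weeks of age) to seed the liver. Each of the 4 groups had 4 mice: a control group given PBS, a group given SB525334 (an inhibitor of the type I TGF-β receptor ALK5, 20 mg/kg by gavage each day), a group given KN046 (an antibody against PD-L1 and CTLA-4, 10 mg/kg into the peritoneum, 2 injections a week), and a combination group given both agents. All mice carried the same injected line, so every group compares treated with untreated tumor of 1 cell line in 1 strain. Tumor tissue was sequenced in bulk, and a library held 18368994 to 23877131 counts.

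A ribosome is built from ribosomal RNA and a copy of each ribosomal protein, so the genes of these proteins are expressed at high levels and tend to move together. Many of their messages start with a cytosine and a run of pyrimidines, the terminal oligopyrimidine start, through which translation of the message follows mTOR signaling. Ribosome production is high in growing tumor cells and in activated lymphocytes, so tumor tissue holds these messages from several kinds of cell.

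Because many of these messages are known for this kind of start, the first bases at the annotated starts were read from the genome. A start was scored as pyrimidine when the first transcribed base was C and at least 4 more C or T followed. With the RefSeq starts of assembly GRCm38.p6, 13 of the 63 members found had such a start (20.6%), against 2.97% of 26962 other genes. With the canonical starts of GENCODE M39 on GRCm39, 7 of 83 members had it (8.43%), against 3.62% of 21687 other genes. Both annotations gave more pyrimidine starts to the members than to other genes, and the share differed with the annotation. The sequences below (GRCm39, 5′ to 3′ on the strand of the gene, 15 bases before the start and 15 from it, the pyrimidine run in capitals) are shown because Rpl22 and Rps16 were among the members called with the combination, Rpl15 and Rpl35a had the start in both annotations, Rps2 had the longest run, which goes to the end of the 30 bases printed, and Rps27l is a second copy of Rps27. They lie at chr4:152410135-152410164 (plus strand) for Rpl22, chr7:28049967-28049996 (plus) for Rps16, chr14:4198698-4198727 (plus) for Rpl15, chr16:32876630-32876659 (plus) for Rpl35a, chr17:24939067-24939096 (plus) for Rps2 and chr9:66853325-66853354 (plus) for Rps27l.
Rpl22: cccgtctgactcctcCCTTTCCCgacagcc
Rps16: ggacggagtccccacCCTCCgggtcccgca
Rpl15: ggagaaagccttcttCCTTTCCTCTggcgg
Rpl35a: cgactacgattttgcCTTTCCTTgttccta
Rps2: ttccgcggcgcctccCTCTTCTTCTTCTTC
Rps27l: gagcggtcgcccccgCCTCCactcctctcc

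The letters CTTTCC, which stand in the runs of Rpl22, Rpl15 and Rpl35a, were looked for within 50 bases of the start on each strand, a search chosen after the sequences had been seen. On the strand of the gene they occurred in 19 of 63 members with RefSeq starts (30.2%, against 5.37% of other genes) and in 15 of 83 with GENCODE starts (18.1%, against 4.39%). On the other strand the shares were 3.17% and 4.82% of members, against 5.13% and 4.39% of other genes. As above, any listed RefSeq start of a gene counted, against its canonical GENCODE start alone. The letters come from the runs of 3 of these members, so these shares are a description, and the strands were not compared by a test. Of the 9 members called higher with the combination below, 2 had the GENCODE pyrimidine start (Rpl22 and Rps16), and the median log2 fold change of the combination against control was 0.53 over the 7 tested members with it and 0.52 over the rest. Rplp2 and Rps21, also among the 9, had such a start with RefSeq only, and the rest includes these and other such members. The RefSeq starts were not compared in this way.

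Levels are given in CPM, the raw counts brought to a common library size with TMM factors in edgeR. Of the 83 members, 79 passed the filter on low counts and were among the 13968 genes tested. Rpl10l had no count in any mouse, which allows up to 3 counts in a library. Rpl39l had 13 counts over the 16 mice, Rpl3l had 50 and Rpl24 had 96, with at most 14 in 1 mouse. Rpl10l, Rpl39l and Rpl3l are paralogs of Rpl10, Rpl39 and Rpl3, known from testis or muscle, while Rpl24 is an ordinary protein of the large subunit. Of the canonical mRNA of Rpl24, 86.3% had a copy elsewhere in the genome at 98% identity or more, and 41.1% of its exon bases were overlapped by another gene on the same strand. How reads with several places were counted is not stated, and its part in these low counts was not tested.

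Levels were compared between members only per length, as control CPM per kilobase of the union of a gene's exons. Over the 79 tested members the median was 186 and the range 1.95 to 1580 CPM per kilobase. Rps2, a protein of the small subunit near the mRNA entry, was highest at 1577 ± 372 (SD, n = 4), ahead of the stalk protein Rplp1 at 1283 ± 408 and Rps3a1 at 1264 ± 218. The top 3 did not differ beyond their spread, and the order after Rps2 changed with the length used: per kilobase of the longest transcript Rps4x was next at 1595, and per kilobase of the canonical transcript Rpl13 at 2341 and Rplp0 at 2145. Rps10 was lowest among those tested at 1.95 ± 0.85, then Rpl22l1 at 3.85 ± 0.52, Rpl13a at 4.11 ± 0.40 and Rpl23a at 6.93 ± 2.71. In these low members 65.1% of the mRNA of Rps10, 86.6% of that of Rpl22l1 and 95.4% of that of Rpl23a had a copy in the genome, while Rpl13a had none and 33.0% of its exon bases were overlapped by other genes on the same strand. The highest members were copied as much, with 84.6% of the mRNA of Rps2, 90.7% of that of Rplp1 and 89.0% of that of Rps3a1, and over all 83 members the Spearman correlation of the copied share with mean CPM was 0.163. Over all 83 members 67 had a copied stretch of at least 100 bases, and in 37 it covered over 50% of the mRNA. The level of such members, and not only of the lowest, is therefore uncertain.

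The question of the comparisons was how each agent, and both together, changed the tumor tissue. Among control mice the members' share of all counts was 4.62%, 4.66%, 6.49% and 6.64% (mean 5.60% ± 1.11 SD, n = 4). In SB525334 mice it was 7.26%, 6.33%, 7.01% and 6.77% (6.84% ± 0.40), and in KN046 mice 5.82%, 4.57%, 6.78% and 5.80% (5.74% ± 0.91). In combination mice it was 6.03%, 10.6%, 8.07% and 7.51% (8.06% ± 1.92). All groups overlapped with control, and the combination overlapped with every other group. Without combination mouse 2 the combination mean was 7.21% ± 1.06 (n = 3).

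**Figure D1:**
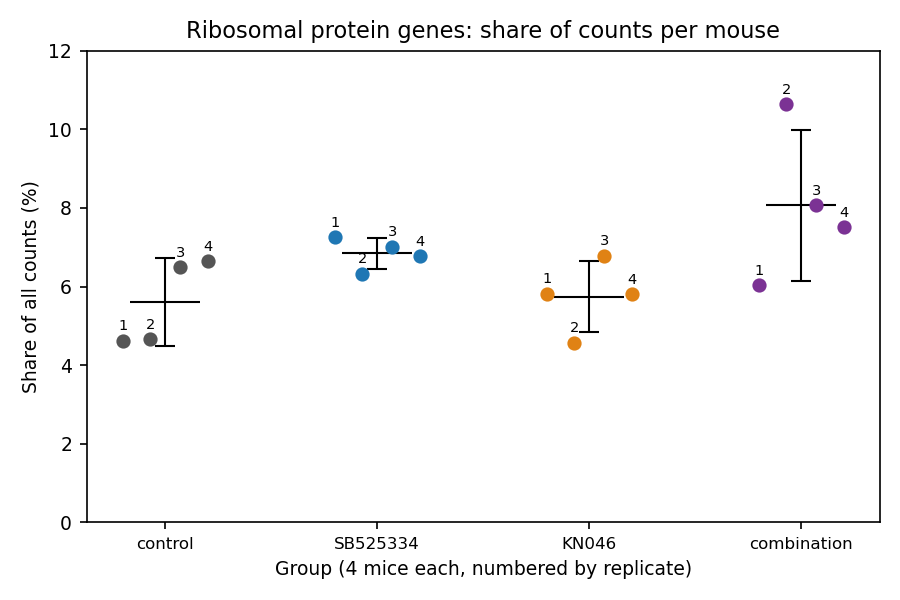
Share of all counts on the 83 ribosomal protein genes in percent (vertical axis) for each mouse (points, numbered by replicate) in the 4 groups, with the group mean and SD as a black bar. Control mice 1 and 2 sit at 4.62% and 4.66% and control mice 3 and 4 at 6.49% and 6.64%, and combination mouse 2 is the highest of all at 10.6%.

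A few libraries stood apart. Control mice 1 and 2 resembled each other, as did mice 3 and 4: the median chi-square per gene between their counts was 1.25 and 0.956, against 2.82 to 18.7 for the other pairs within a group, while 24.8% and 18.1% of genes still passed the 95% limit. The labels give 4 control samples, which were kept as 4, but from the counts 4 tumors cannot be told apart from 2 tumors each sequenced as a pair of libraries, which would leave 2 control samples. With each pair merged, 0 of the 9 members called below in the combination against control were called. For the members, the median log2 ratio to the control mean was -0.36 and -0.35 in control mice 1 and 2 and 0.26 and 0.31 in mice 3 and 4. In combination mouse 2 it was 0.97, and this mouse had the highest CPM of the 16 for 77 of the 79 members. The spread between the control pairs was thus as large as the differences between groups given below. Nothing in the labels says that the mice of a group came from separate litters or batches, so p-values measure the spread between these samples.

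**Figure D2:**
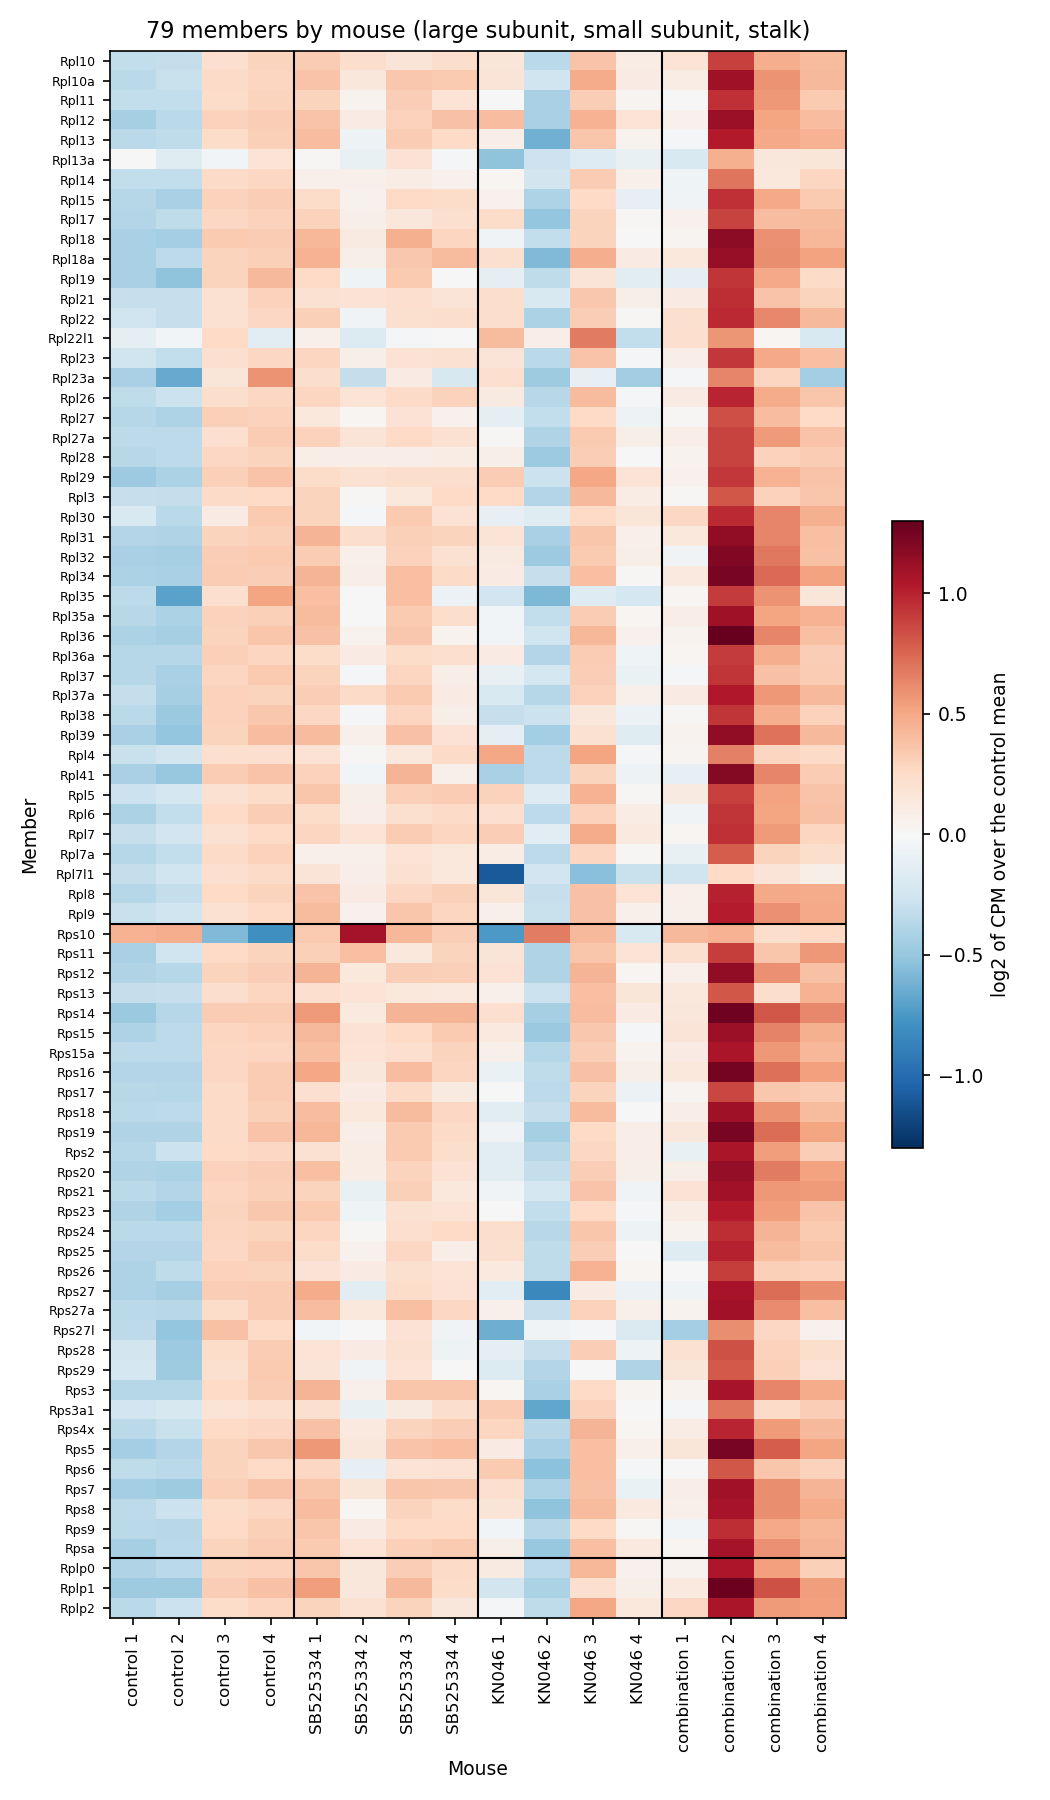
Heat map of log2(CPM over the control mean) for the 79 tested members (rows, by subunit and name) in the 16 mice (columns, by group, separated by black lines), red above and blue below the control mean. Control mice 1 and 2 and KN046 mouse 2 are below the control mean in nearly every row (medians -0.36, -0.35 and -0.35), combination mouse 2 is above it in all 79, and Rps10, Rpl22l1 and Rpl7l1 leave the common pattern.

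The members varied together from mouse to mouse. Over the 16 mice the Pearson correlation of log2(CPM + 1) of a member with the mean of the other members had a median of 0.979, and 71 of 79 members exceeded 0.9. These values describe 16 mice that share 4 groups and their scaling. Rps10 (-0.14), Rpl22l1 (0.39), Rpl7l1 (0.48), Rpl13a (0.70), Rpl23a (0.74) and Rps27l (0.75) were least like the rest. They comprise the 3 expressed paralogs and 3 members of low level per length. Among genes outside the name rule, high correlations with the mean of the members were those of Psmb1, a proteasome subunit (0.989), Eef1b2, an exchange factor of elongation (0.988), Fau, which encodes a ribosomal protein fused to a ubiquitin-like protein (0.987), and Rack1, a protein bound to the small subunit (0.985).

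Against control, SB525334 gave no called member. The median log2 fold change of the 79 members was 0.22 (1.17-fold), against 0.00059 over all genes tested. Above 0 were 77 members, and 50.1% of all genes. By edgeR's quasi-likelihood test 0 members passed an adjusted p of 0.05 in either direction, 0 had an unadjusted p under 0.05, and DESeq2 also called 0. Among all genes 0.394% were called higher and 9.22% lower. No member had its 4 SB525334 mice all above or all below the 4 control mice, where 5.0% and 13.3% of all genes did. The extremes were Rps10 at 0.58 (SE 0.31, edgeR adjusted p = 0.354) and Rpl22l1, a paralog of the large subunit protein Rpl22, at -0.03 (SE 0.21, adjusted p = 0.967). The median depended on which control mice were used: it was -0.05 against control mice 3 and 4 alone, where Rps10 was the only member called (log2 fold change 1.27, edgeR adjusted p = 0.0353), and 0.57 against control mice 1 and 2 alone.

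KN046 against control also gave no called member. The median log2 fold change was 0.04 (1.03-fold), against -0.03 over all genes. Above 0 were 55 of 79 members, and 46.7% of all genes. By edgeR 1 member had an unadjusted p under 0.05, 0 passed after adjustment and DESeq2 called 0, where 1.6% of all genes were called higher and 2.4% lower. That member was Rpl7l1, a paralog of Rpl7 that acts in ribosome assembly. Its CPM was 112, 116, 161 and 164 in the control mice and 64.9, 116, 94.9 and 113 in the KN046 mice. KN046 mice 1 and 3 lay below all control mice, and KN046 mice 2 and 4 lay near the lower control pair. The log2 fold change of Rpl7l1 was -0.51 (SE 0.17, edgeR adjusted p = 0.0896), and it passed the test without KN046 mouse 2 (-0.60, adjusted p = 0.0369) or without control mice 1 and 2 (-0.74, adjusted p = 0.0406). The highest member was Rpl22l1 at 0.26 (SE 0.21, edgeR adjusted p = 0.480). No member had its 4 KN046 mice all above or all below the 4 control mice, where 4.94% and 6.65% of all genes did.

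In the combination against control, 9 of the 79 tested members rose by edgeR (11.4%) and 0 fell, where 1.37% of all genes were called higher and 9.74% lower. All 79 members were above 0, where 51.7% of all genes were. Their median log2 fold change was 0.52 (1.44-fold), against 0.01 over all genes, and 64 had an unadjusted p under 0.05. The members varied together from mouse to mouse, so these are not 79 independent results. The 9 were Rpl22, Rpl30 and Rpl34 of the large subunit, Rps14, Rps16, Rps19 and Rps21 of the small subunit, and the stalk proteins Rplp1 and Rplp2. No member had all 4 combination mice above or below all 4 control mice, against 5.32% and 12.1% of all genes.

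Values per mouse show where the calls came from. Rps14, a protein of the platform of the small subunit, had 554, 599, 973 and 972 CPM in the control mice and 858, 1859, 1359 and 1195 CPM in the combination mice. Combination mouse 1 lay between the control pairs and the other 3 combination mice lay above all controls. Its log2 fold change was 0.77 (SE 0.23, edgeR adjusted p = 0.0419), the highest of the members.

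Rplp1, which with Rplp2 forms the dimers of the stalk that recruit translation factors, had 547, 545, 940 and 979 CPM in the control mice and 820, 1820, 1335 and 1094 CPM in the combination mice. The log2 fold change of Rplp1 (chr9:61820557-61821872, minus strand) was 0.75 (SE 0.24, edgeR adjusted p = 0.0498). For Rplp2 (chr7:141027274-141034167, plus strand) it was 0.63 (SE 0.19, adjusted p = 0.0378), while Rplp0, the base of the stalk, had 0.53 (SE 0.22, adjusted p = 0.150) and was not called. In all 3 stalk genes combination mouse 1 fell within the control range.

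Rpl30 (chr15:34440430-34443879, minus strand), a large subunit protein that also binds its own message in other species, had the lowest adjusted p. It had 46.5, 41.7, 57.5 and 67.7 CPM in the control mice and 64.4, 104.7, 82.8 and 73.7 CPM in the combination mice. Only combination mouse 1 was not above every control. The log2 fold change was 0.61 (SE 0.16, edgeR adjusted p = 0.0172), and Rpl30 was called in 21 of 27 other settings.

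The other called members had similar sizes. Rps19 (chr7:24583796-24589231, plus strand), a small subunit protein mutated in Diamond-Blackfan anemia, rose by 0.71 (SE 0.22, edgeR adjusted p = 0.0417) on the log2 scale, Rps16 by 0.71 (adjusted p = 0.0447), Rpl34 by 0.71 (adjusted p = 0.0464), Rps21 by 0.64 (adjusted p = 0.0439) and Rpl22, whose protein also has functions outside the ribosome in lymphocytes, by 0.58 (adjusted p = 0.0491). Rpl22 had 298, 289, 409 and 430 CPM in the control mice and 411, 696, 550 and 476 CPM in the combination mice, so combination mouse 1 was again within the control range.

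The members chosen for their role that were not called included Rpl5, Rpl11, Rps6, Rpsa and Rps3. Rpl5 had 0.50 (SE 0.18, edgeR adjusted p = 0.0840) and Rpl11 0.50 (SE 0.20, adjusted p = 0.130), both of which bind Mdm2 when ribosome assembly fails. Rps6, the ribosomal target of S6 kinase, had 0.39 (SE 0.21, adjusted p = 0.293), Rpsa, also a laminin receptor, 0.59 (SE 0.23, adjusted p = 0.121), and Rps3, which also acts in DNA repair, 0.60 (SE 0.21, adjusted p = 0.0835). The lowest members were Rpl7l1 at 0.07 (SE 0.17, adjusted p = 0.834), Rpl13a at 0.16 (SE 0.16, adjusted p = 0.592) and Rps27l at 0.17 (SE 0.21, adjusted p = 0.687). The median was 0.50 over 44 large subunit members (3 called), 0.57 over 32 small subunit members (4 called) and 0.63 over the 3 of the stalk (2 called). Across the 79 members the Spearman correlation of the log2 fold change with mRNA length was 0.06 and with mean CPM 0.16, over genes that are not independent.

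**Figure D3:**
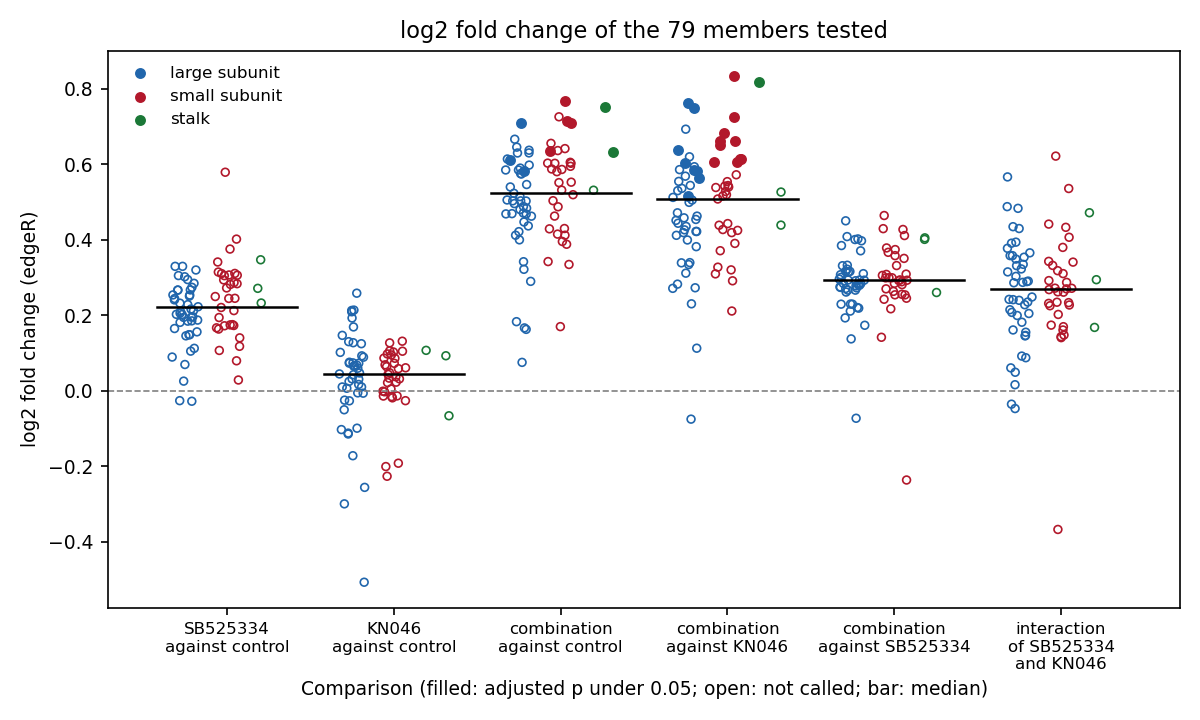
log2 fold change by edgeR (vertical axis) of the 79 tested members in the 6 comparisons, with large subunit, small subunit and stalk members in blue, red and green, filled points called at adjusted p under 0.05 and black bars at the median. Called members occur in the combination against control (9) and against KN046 (19), and the medians of these comparisons are 0.52 and 0.51.

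The 9 calls rested on particular mice. Without combination mouse 2 edgeR called 0 members (18 at an unadjusted p under 0.05), with a median of 0.35 and 78 of 79 above 0. Without control mouse 1, or without control mouse 2, it called 0 in each case (29 at an unadjusted p under 0.05 in both), while without control mouse 3 it called 17, without control mouse 4 it called 30 and without combination mouse 1 it called 56. Leaving out combination mouse 3 left 1 (Rpl30), KN046 mouse 4 left 5, SB525334 mice 1 to 4 left 6, 3, 5 and 2, and leaving out KN046 mouse 2 gave 15. With the similar control pairs summed to 2 samples, or with the 8 mice of the comparison fitted alone, 0 were called (39 and 46 at an unadjusted p under 0.05), while DESeq2 called 28 and edgeR with total counts as the scale called 38. Against control mice 3 and 4 alone the median was 0.26 with 0 called, and against control mice 1 and 2 alone it was 0.88 with 71 called. The direction was above 0 for the median in every one of these settings.

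**Figure D4:**
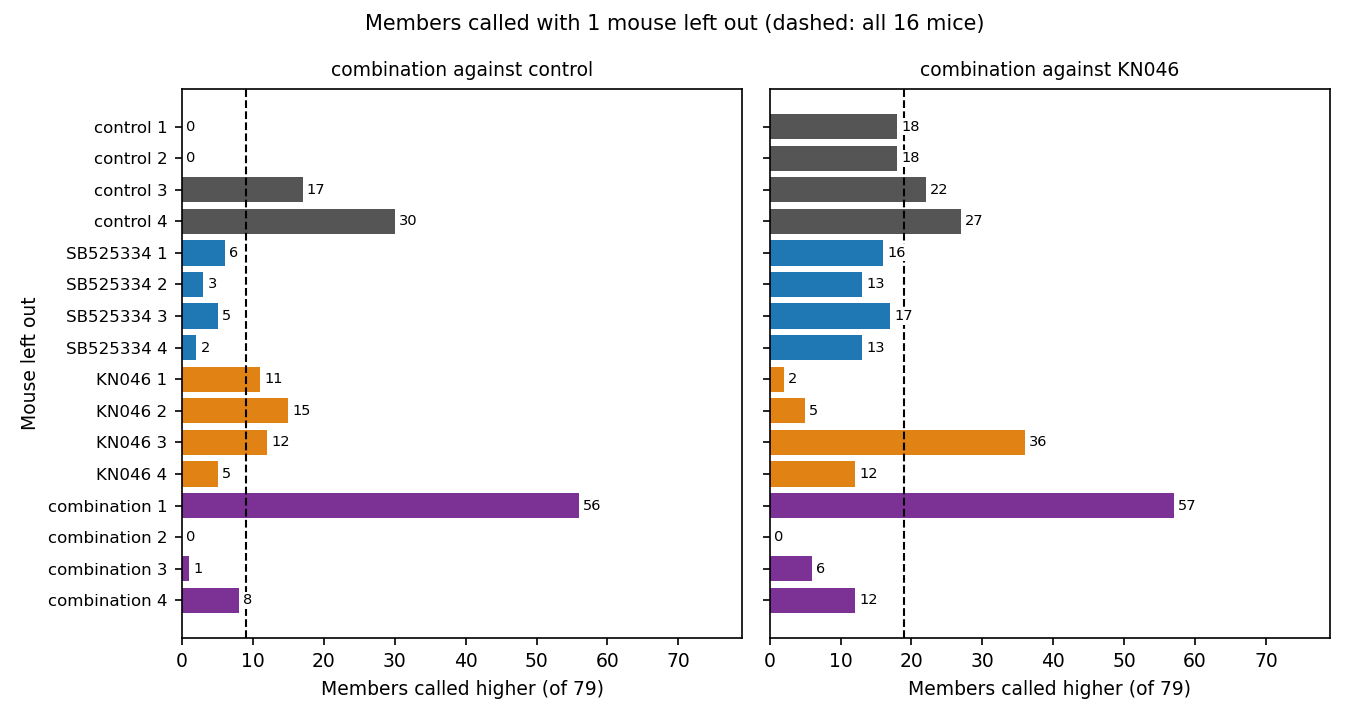
Number of the 79 tested members called higher by edgeR (horizontal axis) when 1 mouse was left out (rows, colored by group) for the combination against control (left) and against KN046 (right), with the count from all 16 mice dashed. Leaving out combination mouse 2 gives 0 in both panels, and leaving out combination mouse 1 gives 56 and 57.

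Against KN046 alone, adding SB525334 gave more called members. The median log2 fold change was 0.51 (1.42-fold), against 0.00081 over all genes, with 78 of 79 above 0, where 50.1% of all genes were. By edgeR 19 members were called higher (24.1%) and 0 lower. At an unadjusted p under 0.05 there were 56 members, fewer than the 64 in the combination against control, where the median was 0.52. Among all genes 9.89% were called higher and 14.5% lower, against 1.37% and 9.74% in that comparison. The higher number of calls thus does not show a larger change of the members against KN046. The contrast with KN046 used no control mouse, but the control mice entered the shared estimate of the spread. With the control pairs merged 17 members were called. With control pair 1 and 2 left out it was 35, and with pair 3 and 4 left out 36. In these fits 1174 of 14241, 1481 of 14181 and 1545 of 14286 genes were called higher. This comparison shared the combination mice with the comparison above, so the calls of both rest on the same 4 tumors.

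The 5 with the highest log2 fold change were Rps27 (0.83, SE 0.24), Rplp1 (0.82, SE 0.24), Rpl35 (0.76, SE 0.24), Rpl39 (0.75, SE 0.23) and Rps19 (0.72, SE 0.22), with edgeR adjusted p of 0.0194, 0.0194, 0.0269, 0.0238 and 0.0231. Rps27, a zinc finger protein of the small subunit, had 193, 119, 228 and 201 CPM in the KN046 mice and 204, 444, 350 and 321 CPM in the combination mice. Combination mouse 1 was below KN046 mouse 3, and the other 3 combination mice were above all KN046 mice. Of the mRNA of Rps27, 66.2% has a copy in the genome, so its count is uncertain.

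Without overlap between the 4 combination and the 4 KN046 mice were 3 members (3.8%), Rpl30, Rpl35 and Rps29, against 7.9% of all genes, and 0 members were below without overlap, against 12.4%. Rps29, a small protein of the small subunit head, had 75.6, 65.6, 85.2 and 65.0 CPM with KN046 and 95.1, 148, 106 and 97.1 CPM with the combination. Its log2 fold change was 0.61 (SE 0.17, edgeR adjusted p = 0.0149). Rpl35 had 17.3, 13.8, 18.3 and 17.6 CPM with KN046 and 20.95, 38.8, 30.8 and 23.1 CPM with the combination.

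Rpl7l1 was called here too, at 0.58 (SE 0.17, edgeR adjusted p = 0.0196), with 116, 166, 155 and 146 CPM in the combination mice against the KN046 values given above. Combination mouse 1 was level with KN046 mouse 2 and the other 3 lay above all KN046 mice. Rpl22l1 was the lowest member at -0.08 (SE 0.21, adjusted p = 0.820). Without combination mouse 2 edgeR called 0 members (14 at an unadjusted p under 0.05; median 0.32), without KN046 mouse 1 it called 2 (Rps27 and Rps29), without KN046 mouse 2 it called 5, without combination mouse 3 it called 6, without KN046 mouse 4 or combination mouse 4 it called 12, without KN046 mouse 3 it called 36 and without combination mouse 1 it called 57. The 8 mice of the comparison fitted alone gave 6, DESeq2 30, upper quartile scaling 30 and total counts as the scale 52.

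Against SB525334 alone, adding KN046 gave no called member. The median log2 fold change was 0.29 (1.22-fold), against 0.0081 over all genes, with 77 of 79 above 0, where 51.9% of all genes were. By edgeR 0 members were called and 4 had an unadjusted p under 0.05 (Rpl22, Rpl30, Rplp2 and Rps21), DESeq2 called 0, and 0.544% of all genes were called higher and 3.03% lower. Rps21 was highest at 0.46 (SE 0.20, edgeR adjusted p = 0.396) and Rps10 lowest at -0.24 (SE 0.31, adjusted p = 0.968). Rps28 was the only member whose 4 combination mice (164, 252, 175 and 166 CPM) were above the 4 SB525334 mice (160, 153, 163 and 136 CPM), where 2.43% of all genes were, and 0 members were below without overlap, against 4.62%.

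The interaction asked whether the effect of SB525334 differed with and without KN046. Its median over the members was 0.27 on the log2 scale (0.0093 over all genes), with 76 of 79 above 0, where 51.1% of all genes were. By edgeR 0 members were called, 1 had an unadjusted p under 0.05 (Rps29, 0.54, SE 0.24, adjusted p = 0.260) and DESeq2 called 0, while 1.73% of all genes were called above 0 and 2.55% below. Rps27 was highest at 0.62 (SE 0.34, adjusted p = 0.377). The median was 0.08 without combination mouse 2 and -0.09 against control mice 1 and 2 alone, and against control mice 3 and 4 alone Rps29 was called (0.80, edgeR adjusted p = 0.0488). In the fit of all 16 mice no member was called for an effect of SB525334 that differed with KN046. This does not show that the effects were equal.

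Paralogs were compared with their partner within each mouse, which does not depend on the scaling between libraries. Rpl7l1 shares 59.8% of aligned coding bases with Rpl7, Rpl22l1 70.8% with Rpl22 and Rps27l 76.2% with Rps27. Over the 3 pairs and 5 comparisons, 15 exact two-sided permutation tests were made, for which 4 mice against 4 cannot go below 0.0286.

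Rpl7l1 made up 9.93% ± 0.10 (SD, n = 4) of the CPM of Rpl7 and Rpl7l1 in control mice, 9.23% ± 0.13 in SB525334 mice, 6.52% ± 2.41 in KN046 mice and 7.81% ± 1.03 in combination mice. All 4 mice of each treatment were below all 4 control mice, each at exact p = 0.0286 (adjusted over the 15 tests, p = 0.0857). In KN046 the range was 3.98% to 9.31%. The combination was also below SB525334 without overlap (exact p = 0.0286, adjusted p = 0.0857).

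Rps27l, a paralog of Rps27 that is a target of p53, made up 24.6% ± 0.96 (SD, n = 4) of the pair in control mice, 22.6% ± 3.30 in SB525334 mice, 25.2% ± 7.48 in KN046 mice and 19.1% ± 0.65 in combination mice. The 4 combination mice (18.3% to 19.9%) were below the 4 control mice (23.7% to 25.4%), a difference of -5.47 percentage points (exact p = 0.0286, adjusted p = 0.0857). In CPM, Rps27l had 54.4, 48.6, 90.1 and 82.7 in the control mice and 50.6, 105, 83.0 and 71.8 in the combination mice, while Rps27 had 160, 157, 265 and 265 in the control mice. Rps27l itself overlapped throughout.

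Rpl22l1 was a small part of its pair, at 2.15% ± 0.41 (SD, n = 4) in control mice, 1.83% ± 0.07 in SB525334 mice, 2.42% ± 0.55 in KN046 mice and 1.63% ± 0.35 in combination mice. None of its 5 comparisons passed (lowest exact p = 0.0571, adjusted p = 0.143, for the combination against KN046). None of the 15 tests passed an adjusted p of 0.05, and the similar control pairs entered them as 4 mice.

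**Figure D5:**
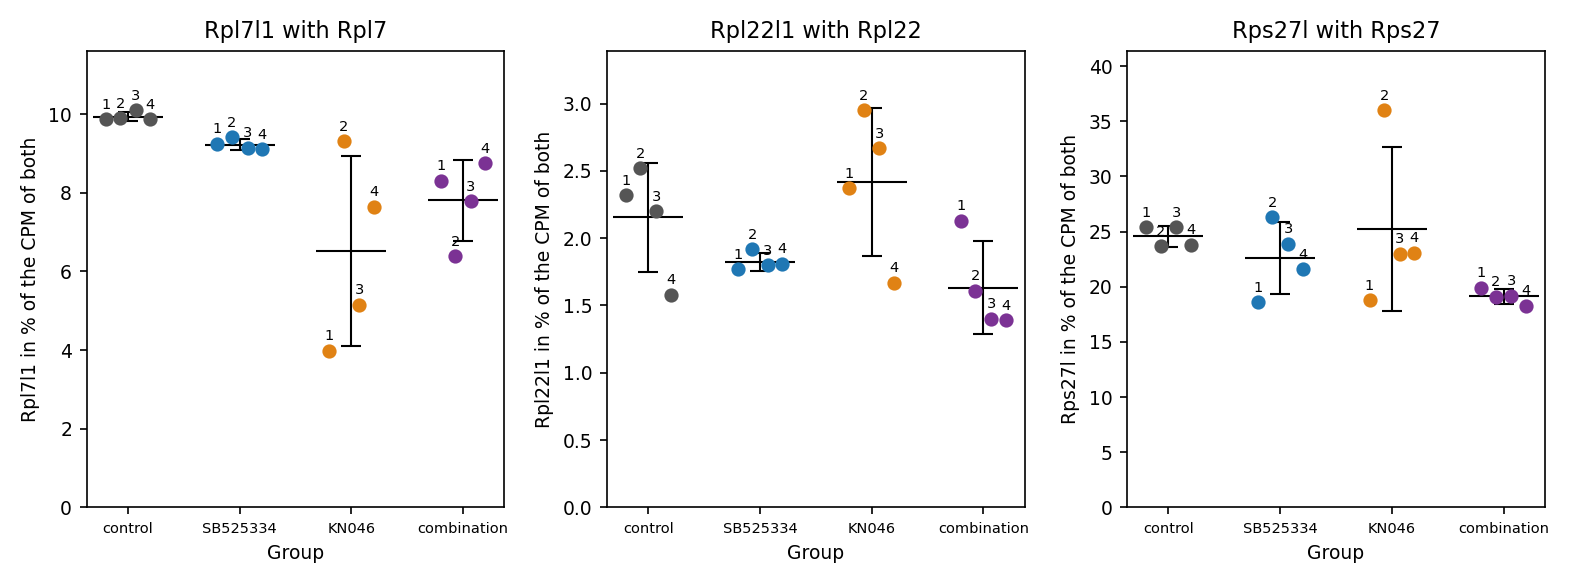
Share of Rpl7l1 (left), Rpl22l1 (middle) and Rps27l (right) in the summed CPM of the paralog and its partner, in percent (vertical axes, from 0), for each mouse (points, numbered by replicate) with group mean and SD in black. For Rpl7l1 every treated mouse sits below the control mice, whose mean is 9.93%, and for Rps27l the combination mice lie between 18.3% and 19.9%.

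Other genes of the same machinery were read from the same fit. Ribosomal proteins outside the name rule included Fau, at 386 ± 99.9 CPM (SD, n = 4) in control and 603 ± 184 with the combination (log2 fold change 0.64, SE 0.23, edgeR adjusted p = 0.0831) and Rpl36al, at 0.57 ± 0.26 and 0.94 ± 0.07 CPM. Neither was called in any of the 6 comparisons. Of 77 mitochondrial ribosomal proteins tested, none was called in the combination against control (median log2 fold change 0.24, 72 above 0), and 23 were called higher against KN046 (median 0.35), where 9.89% of all genes were.

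Of 58 ribosome biogenesis factors, 2 rose in the combination against control, Eif6, which keeps the subunits apart (0.54, SE 0.14, edgeR adjusted p = 0.0178), and Imp3, a part of the small subunit processome (0.62, SE 0.17, adjusted p = 0.0204). Against KN046, 10 were higher and 2 lower, and the lower ones included nucleolin, Ncl (-0.41, SE 0.13, adjusted p = 0.0287). For these and the next lists, 1.37% of all genes were called higher and 9.74% lower against control. Against KN046 the shares of all genes were 9.89% and 14.5%. Of 15 RNA polymerase I genes 0 were called against control, and 5 were higher and 1 lower against KN046. Of 34 initiation factors 1 was higher (Eif6) and 1 lower (Eif5b, -0.45, SE 0.11, adjusted p = 0.0100) against control, and of 14 elongation and termination factors tested 0 were called against control, with a median of 0.29. Eef2, the translocase, had 0.37 (SE 0.17, adjusted p = 0.211) and Eef1a1, which delivers aminoacyl-tRNA, 0.25 (SE 0.18, adjusted p = 0.454). Against KN046, 4 initiation factors were higher and 2 lower, and 1 of the 14 elongation and termination factors was higher (Eef1d).

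Of 20 mTOR and Myc regulators 2 were called lower in the combination against control, a share near the 9.74% of all genes called lower there. They were Mycn (-3.06, SE 0.50, edgeR adjusted p = 0.000208) and Deptor, an inhibitor of mTOR (-1.48, SE 0.21, adjusted p = 4.4e-05), and the same 2 were called lower with SB525334, where 9.22% of all genes were. In the combination against KN046, 5 of the 20 were called lower (Mycn, Deptor, Rps6kb2, Rictor and Tsc1) and 0 higher, where 14.5% of all genes were called lower. Myc had 173 ± 10.6 CPM (SD, n = 4) in control and 177 ± 39.3 with the combination (log2 fold change 0.04, SE 0.25, adjusted p = 0.948).

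The makeup of the tissue differed between the groups, and in bulk RNA more cells of a type and more RNA per cell cannot be told apart. The summed CPM of 10 hepatocyte markers ran from 11755 to 13048 in the control mice, 244 to 1460 in SB525334 mice, 7695 to 15397 in KN046 mice and 10.7 to 16.6 in combination mice, and all 10 were called lower in the combination against control. Albumin had 7.07 to 11.6 CPM in the combination mice, and Apoc3 and Hnf4a were at 0 in at least 1 of them, although the labels call the tissue of all groups liver metastases. Leaving the hepatocyte list out of the totals moved the mean share of the members to 5.67% in control and left it at 8.06% in the combination. This takes out 10 genes only, and other RNA of hepatocytes stays in the totals, so its part in the share was not tested. The 4 epithelial markers summed to 123 to 230 CPM in control and 1.26 to 4.97 CPM with the combination, with Krt8 at 0 to 0.883 CPM. The 4 neutrophil markers summed to 93.9 to 111 CPM in control, 7.37 to 17.2 CPM with SB525334, 14.4 to 22.1 CPM with KN046 and 4.53 to 141 CPM in combination mice.

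Markers of other cells also differed between the control pairs. In control mice 1, 2, 3 and 4 the 3 endothelial markers summed to 157, 157, 65.6 and 66.1 CPM, the 4 epithelial markers to 123, 125, 230 and 223 CPM and the 4 erythroid markers to 129, 142, 73.0 and 76.4 CPM. Control mice 1 and 2, the lower pair in the ribosomal protein genes, were thus higher in endothelial and erythroid and lower in epithelial markers.

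Lymphocyte markers were highest in other mice than the members were. The 5 T cell markers summed to 22.5, 25.2, 21.6 and 22.7 CPM in control, 6.72, 11.2, 4.30 and 9.51 CPM with KN046 and 30.3, 21.4, 22.9 and 40.5 CPM with the combination. Combination mouse 2, the highest in the members, had the lowest T cell sum of its group. The 4 B cell markers summed to 16.4, 2.10, 1.97 and 50.6 CPM in the combination, and the 5 proliferation markers to 1358 to 1474 CPM, against 1559 to 1817 CPM in control. The lower sum was not shared by all 5 markers. In the combination against control 3 of them were above 0 (median log2 fold change 0.08), and Mki67 alone was called lower. The part of all these cell types, in the groups and in the control pairs, in the levels of the ribosomal protein genes was not tested.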

How the data were processed

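RNA of the 16 tumor samples was sequenced as mRNA libraries on an Illumina HiSeq instrument. Per the submitters' processing notes, the authors used cutadapt 2.7, HISAT2 2.2.1 on GRCm39 and HTSeq 2.0.4. The values used are the raw read counts per gene that the authors deposited. A second set of files with counts normalized by DESeq2 1.38.3 was not used. The strand setting of HTSeq is not given in the sources used here, so members that overlap other genes are uncertain.

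Gene symbols, lengths and starts came from GENCODE M39, which held 21770 of the 21959 identifiers. Counts were tested with edgeR 4.0.16 under R 4.3.3 (TMM factors; genes kept by filterByExpr at 10 counts; 1 quasi-likelihood model of group in all 16 mice; Benjamini-Hochberg adjustment over the 13968 genes kept, called at an adjusted p under 0.05). All p-values that name no other test are from edgeR. Log values used a pseudocount of 1 where stated. Genome copies were found with blastn 2.17.0 (98% identity over 100 bases). Paralog shares were tested by exact permutation in scipy 1.17.1. The pipeline was tested on simulated data. Intervals of counts cover counting error only. The alternatives were DESeq2 1.42.0, other scalings and filters, a replicate block, the 8 mice alone, merged control pairs and each mouse left out; leaving out a control pair and the canonical transcript length were added after seeing the data.

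The members and gene lists were chosen with earlier results of these data known. Named were the called members (at most 10, otherwise the 5 largest), the highest and lowest in each comparison, members chosen for their role, paralog pairs, the extremes per length and untested members. Rps29, Rps28, Rpl23a and the members named because few passed were chosen after their values were seen. An item of the gene lists and of the likeness ranking is not reported here.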

Additional observations from a re-analysis of the deposited data

Results flagged for a closer look

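In 132 groups of 4 mice (the share of counts, the named members and the paralog shares, each in every group), the gap of the highest or lowest mouse to its neighbor was compared with the range of the group, with a limit of 0.829. It was passed in 2 groups, where chance alone passes in about 1 of 20. For Rps10 in the SB525334 group the ratio was 0.883, as mouse 2 had 13.1 CPM and the other 3 had 7.71 to 8.35 CPM. For Rpl7l1 in percent of Rpl7 and Rpl7l1 in the control group it was 0.870, within a range of 9.87% to 10.1%. Combination mouse 2, the highest for 77 of 79 members, did not pass this limit for the share of counts.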

How the results depend on the processing

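In the combination against control, 9 members were called higher by edgeR. The count was 38 with total count scaling, 28 with DESeq2, and 0 with the 8 mice alone, with the control pairs merged and with control pair 1 and 2 left out, and 71 with control pair 3 and 4 left out. Leaving out 1 mouse gave 0 to 56. Against KN046, 19 were called. Total count scaling gave 52, upper quartile scaling 30, DESeq2 30, the 8 mice alone 6, and leaving out 1 mouse 0 to 57. The number of all genes called higher changed as well. It was 192 in the combination against control, and 35 to 883 in the other settings. Against KN046 it was 1381, and 508 to 1895 in the other settings. With control pair 1 and 2 left out, 1 member each was called higher with SB525334 (Rps10) and in the interaction (Rps29) and 1 lower with KN046 (Rpl7l1), where leaving out 1 mouse gave 0 to 1. With that pair left out, 27 of 14181 genes were called higher with SB525334, 183 higher in the interaction and 267 lower with KN046. Fewer mice remain in these fits, and the cause of the other changes was not tested.

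With 1 mouse left out, the median log2 fold change of the members ran from 0.12 to 0.36 (SB525334), -0.07 to 0.16 (KN046), 0.35 to 0.68 (combination against control), 0.32 to 0.64 (against KN046), 0.09 to 0.41 (against SB525334) and 0.08 to 0.38 (interaction). Signs turned for members that were not called: Rpl22l1 with SB525334 (0.0118 with total count scaling, 0.0486 with control pair 3 and 4 left out, -0.0656 to 0.0772 without 1 mouse), and in the combination against control Rpl7l1 (-0.17) and Rps27l (-0.16) with control pair 1 and 2 left out, Rps10 (-0.11) with control pair 3 and 4 left out, and Rpl7l1 without control mouse 1 or 2 (-0.0164 to 0.198 over all single mice left out). Rpl22l1 in the combination against KN046 ran from -0.218 to 0.104 without 1 mouse, and Rps10 in the interaction turned to 0.0884 with control pair 3 and 4 left out.

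The replicate block gave 8 and 23 called members in the combination against control and against KN046, and medians of 0.54 and 0.52. Of 24 same-numbered pairs of mice from different groups, 10 had a correlation over 0.1, with a range of -0.483 to 0.527. Pairs with different numbers ranged from -0.526 to 0.505. The 2 kinds of pairs were not compared by a test, so whether the numbers pair the mice was not settled. Level per length of Rps2 was 2480 with the longest and 2650 with the canonical transcript, and that of Rps3a1 1490 with the canonical transcript.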
